A study of Mus musculus with 48 samples.

Results

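Pou5f1, Sox2 and Nanog encode OCT4, SOX2 and NANOG, the transcription factors at the centre of the pluripotency network of mouse embryonic stem cells (ESCs). Their transcription was followed in 48 libraries of RNA labelled with 4-thiouridine (4SU), a uridine analogue that cells build into transcripts as they are made. The members were taken by symbol from the gene IDs of the count tables, and all 3 were present among the 54752 genes listed. Only 2 of the 3 had counts: Sox2 stood at 0 in every library, as did every gene placed like it in the annotation, so its transcription was not measured.

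All cells were mouse ESCs grown in L2i medium, and each of the 24 groups holds 2 libraries. FOXD3-iKO cells carry an inducible knockout of Foxd3, the gene of a forkhead factor active in pluripotent cells, and were given 4-hydroxytamoxifen (4HT) or its solvent ethanol. Cycling FOXD3-iKO cells were collected at 8, 14, 24 and 32 h of treatment (16 libraries). Cycling OCT4-tetOff cells received doxycycline (DOX) or water for 16 or 24 h (8 libraries). Synchronized FOXD3-iKO cells were stopped at the start of S phase by excess thymidine, given in a double block. Release began 24 h after 4HT or ethanol was added, and samples were taken 0, 1, 2, 3, 4 and 5 h later (24 libraries). The 4SU pulse lasted 30 min in cycling and 15 min in synchronized cells. The sources used here do not say which enzyme inactivates Foxd3, whether a line is a single clone, what the OCT4-tetOff transgene holds or whether endogenous Pou5f1 copies are intact. The labels do not say that the replicates came from separate cultures, and p-values therefore rest on a spread among samples that may be technical.

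OCT4 is a POU-domain factor that binds an octamer motif, usually together with SOX2, an HMG-box factor whose site adjoins the octamer. NANOG is a homeodomain factor that stabilises self-renewal and whose own gene is a textbook target of OCT4 and SOX2. The 3 factors occupy the enhancers of one another, and in mouse ESCs a fall in OCT4 is known to let cells turn towards trophectoderm. The design asks how FOXD3 loss alters transcription and how it compares with OCT4 loss.

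The promoters of the members are shown because those of Nanog and Sox2 hold octamer letters, the letters that OCT4 is known to bind. Each runs from 250 bases before to 50 bases after the RefSeq start site nearest to the start of the counted gene (RefSeq, GRCm38.p6, plus strand): Pou5f1 at chr17:35505782-35506081, Sox2 at chr3:34649745-34650044 and Nanog at chr6:122707239-122707538. Capitals mark every match, on either strand, to the 6 motifs searched.
Pou5f1: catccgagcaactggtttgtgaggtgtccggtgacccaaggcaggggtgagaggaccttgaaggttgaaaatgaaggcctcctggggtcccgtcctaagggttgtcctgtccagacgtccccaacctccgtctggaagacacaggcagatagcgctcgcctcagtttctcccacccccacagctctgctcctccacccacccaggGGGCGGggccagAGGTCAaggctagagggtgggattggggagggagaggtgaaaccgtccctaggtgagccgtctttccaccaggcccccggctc
Sox2: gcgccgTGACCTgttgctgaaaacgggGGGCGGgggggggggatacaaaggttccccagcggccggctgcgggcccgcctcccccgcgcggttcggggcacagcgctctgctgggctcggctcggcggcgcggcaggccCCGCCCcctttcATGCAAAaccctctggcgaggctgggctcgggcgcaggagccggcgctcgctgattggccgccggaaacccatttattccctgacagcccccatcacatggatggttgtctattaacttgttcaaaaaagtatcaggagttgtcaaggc
Nanog: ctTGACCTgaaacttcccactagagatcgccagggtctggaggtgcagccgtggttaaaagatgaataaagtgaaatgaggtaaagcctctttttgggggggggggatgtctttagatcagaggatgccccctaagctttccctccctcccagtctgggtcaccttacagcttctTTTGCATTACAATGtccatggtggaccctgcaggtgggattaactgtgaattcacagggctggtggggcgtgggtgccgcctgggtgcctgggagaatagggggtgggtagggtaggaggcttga

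In the Nanog promoter the capitals TTTGCATTACAATG hold the SOX letters CATTGT and the octamer letters ATGCAAA side by side on the minus strand. Read on that strand, CATTGT is followed after 1 base by ATGC, a joined motif whose leftmost base on the plus strand lies 72 bases before the start site and which was present in 20 of the 32841 promoters of the same length (0.0609%). The 7 octamer letters alone were also found in the Sox2 promoter, 99 bases before its start site, and in 4.63% of all promoters. CATTGT alone was found in 12.6% of all promoters. The Pou5f1 promoter held neither of these motifs. A GC box (GGGCGG, 35.7% of promoters) was matched once in the Pou5f1 promoter, 45 bases before its start, and at 2 places in that of Sox2. The nuclear receptor letters AGGTCA (16.3% of promoters) were in all 3 promoters, 33 bases before the start of Pou5f1, 244 before that of Sox2 and 248 before that of Nanog. The forkhead letters TGTTTAC, present in 3.65% of promoters, were in none of the 3. These matches describe letters in the window only, and the enhancers of the 3 genes lie outside it.

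The count tables cover each gene from its first to its last base, introns included (mm10). Pou5f1 (ENSMUSG00000024406.16, chromosome 17, 35506018 to 35510772, plus strand, 4755 bases) collected 91107 counts over the 48 libraries. Nanog (ENSMUSG00000012396.12, chromosome 6, 122707489 to 122714633, plus strand, 7145 bases) collected 352181 counts and overlaps no other listed gene. Its pseudogenes Nanog-ps1 and Nanog-ps2 had 32 counts and 1 count in all, and the sources used here do not say how reads matching several copies were handled. Gm19553, an antisense gene inside Pou5f1, had 205 counts of its own in all.

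Sox2 (ENSMUSG00000074637.7, chromosome 3, 34650405 to 34652461, plus strand, 2057 bases) lies wholly inside Sox2ot, a long noncoding gene on the same strand (ENSMUSG00000105265.4, 34104270 to 34682619, 578350 bases). Every one of the 6484 genes that lie wholly inside a gene on the same strand had 0 counts in all 48 libraries. Among genes inside a gene of the opposite strand only, 1571 of 6310 (24.9%) had no count, and among the other genes 9558 of 41958 (22.8%). The 0 of Sox2 is thus shared with all genes in its position and is not a level: no floor, fold change or comparison can be given for Sox2. Sox2ot had 111271 counts, and its values are given beside the members as those of the overlapping gene, not as a stand-in for Sox2.

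**Figure D1:**
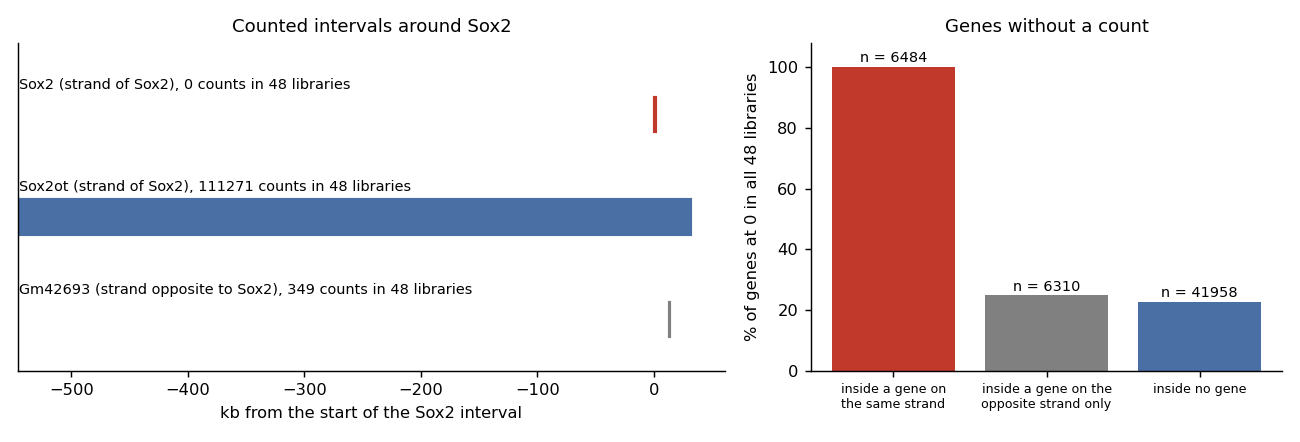
Left, the counted intervals of Sox2, Sox2ot and the antisense gene Gm42693 in kb from the start of Sox2, with their counts summed over 48 libraries; right, the percentage of genes with 0 counts in all 48 libraries, by the position of the gene. All 6484 genes inside a gene of the same strand stand at 0, Sox2 among them, against 24.9% and 22.8% of the genes in the other classes.

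A library held 21827951 to 30406124 counts in cycling FOXD3-iKO cells, 21113158 to 26112435 counts in OCT4-tetOff cells, and 7953841 to 17936504 counts in synchronized cells. Levels below are counts per 1e6 counts (CPM) after TMM scaling within a table. Where groups of 2 libraries are said not to overlap, this describes their order only. Such groups can lie apart without any change, and the share of all genes that do so at a single time was not computed. Foxd3, the targeted gene, ran from 1.43 to 4.84 CPM in cycling 4HT libraries and from 5.05 to 9.99 CPM in ethanol libraries, and from 1.17 to 2.19 CPM in synchronized 4HT libraries and from 3.89 to 8.23 CPM in their ethanol libraries, with no overlap in either table. The fibroblast (feeder) list of 11 genes summed to 26.5 to 29.4 CPM in DOX libraries, 14.6 to 16.9 CPM in water libraries and at most 9.48 CPM in FOXD3-iKO libraries. Zfp42, a marker of naive ESCs, ran from 148 to 156 CPM after 24 h of DOX and from 515 to 538 CPM after 24 h of water.

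Per kb of counted interval, the Nanog level exceeded the Pou5f1 level in every library. In cycling FOXD3-iKO cells Nanog averaged 64.4 ± 5.15 CPM per kb after 4HT and 61.4 ± 8.35 after ethanol (SD, n = 8 each), and Pou5f1 averaged 17.7 ± 4.07 after 4HT and 19.1 ± 2.75 after ethanol. Nanog in OCT4-tetOff cells averaged 47.4 ± 11.4 CPM per kb after DOX and 72.5 ± 6.43 after water (SD, n = 4 each), and Pou5f1 13.8 ± 3.41 after DOX and 43.1 ± 4.85 after water. In synchronized cells the Nanog means were 43.5 ± 6.38 CPM per kb after 4HT and 38.99 ± 3.99 after ethanol (SD, n = 12 each), against Pou5f1 means of 19.7 ± 2.35 and 22.2 ± 4.52 for the same arms. With all 48 libraries put on one TMM scale, Pou5f1 averaged 218 ± 21.1 CPM in water-treated OCT4-tetOff cells and 94.7 ± 14.2 CPM in ethanol-treated cycling FOXD3-iKO cells, while Nanog averaged 551 ± 41.04 and 458 ± 66.4 CPM in these same arms. Line, solvent and experiment cannot be told apart in that difference, and it was not tested.

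**Figure D2:**
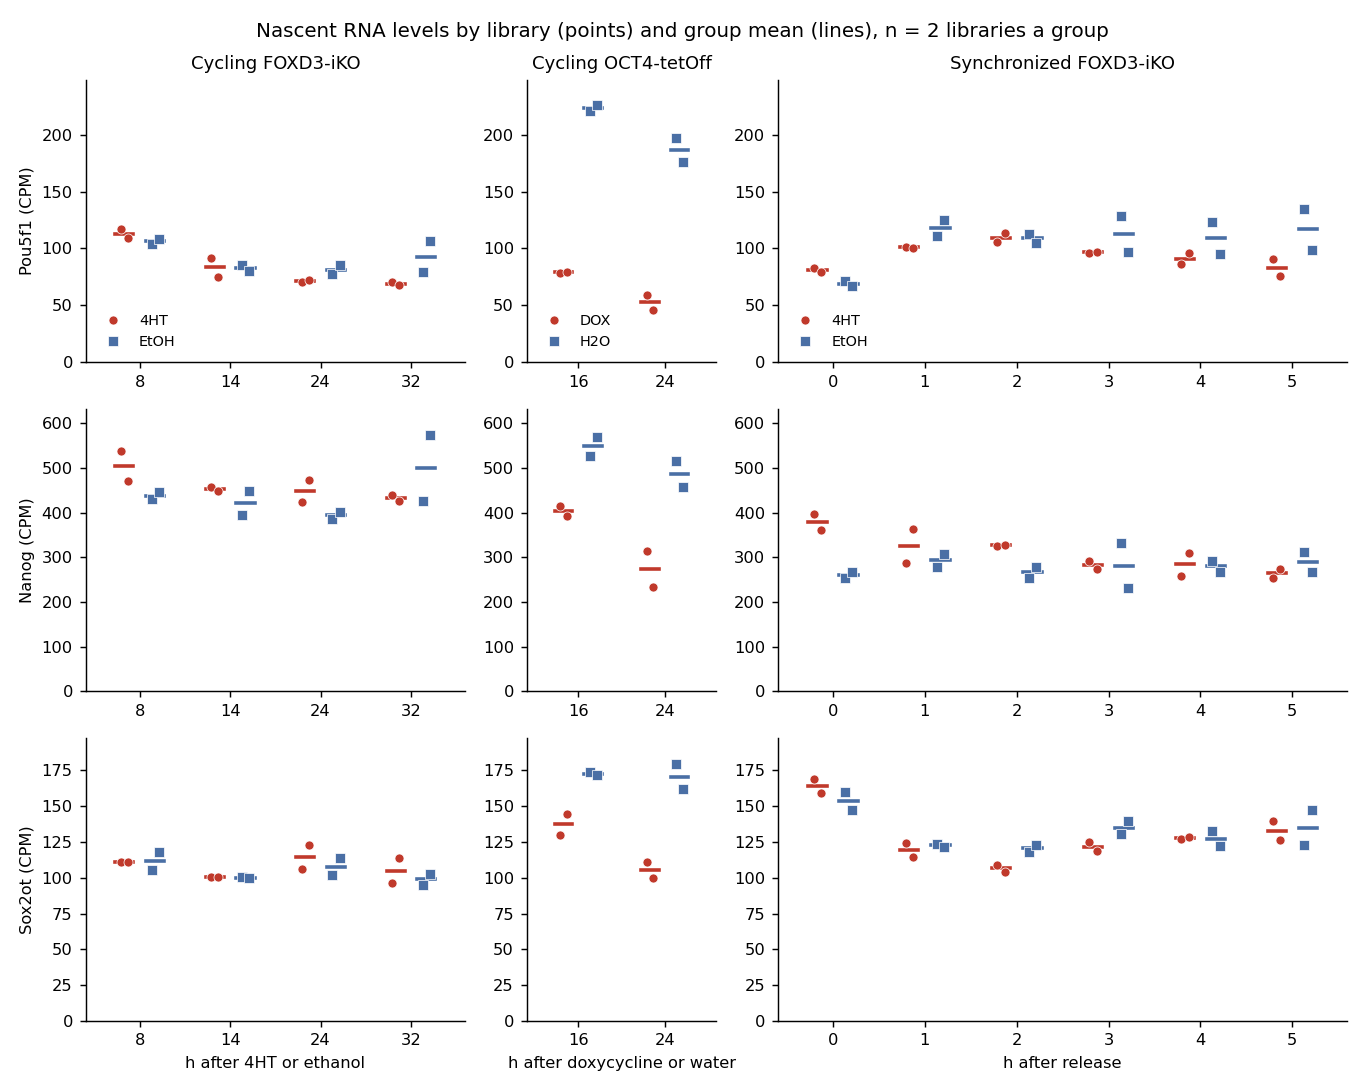
CPM of Pou5f1, Nanog and Sox2ot (rows) in each library by time in h, for cycling FOXD3-iKO, cycling OCT4-tetOff and synchronized FOXD3-iKO cells (columns). Points are libraries and lines are means of 2; red, 4HT or DOX; blue, ethanol or water. Pou5f1 after DOX lies at 46.2 to 79.6 CPM, under all water libraries (176 to 226 CPM).

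In OCT4-tetOff cells Pou5f1 and Nanog transcription was lower after DOX than after water. The change in Nanog was smaller and was called at 24 h only. No other cells received DOX, so the agent cannot be told apart from OCT4 loss. Pou5f1 had 78.8 and 79.6 CPM after 16 h of DOX, against 221 and 226 CPM after water, and 58.9 and 46.2 CPM after 24 h of DOX, against 197 and 176 CPM after water. The DOX libraries lay below all water libraries at both times. Since Pou5f1 is the gene the line was built to switch off, its fall checks the labels: the log2 fold change was -1.50 ± 0.13 (SE) at 16 h and -1.83 ± 0.13 at 24 h, with edgeR adjusted p-values of 7.26e-05 and 1.06e-05 over all genes. Gene-level counts do not separate transgene from endogenous Pou5f1 transcripts.

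Nanog had 414 and 392.4 CPM after 16 h of DOX, against 528 and 570 CPM after water. At 24 h it had 315 and 234 CPM after DOX, against 516 and 459 CPM after water. The groups did not overlap at either time. At 24 h the log2 fold change was -0.83 ± 0.15 (edgeR adjusted p = 0.00266), or 1.77-fold lower, while 6531 of 17713 genes (36.9%) were called in that comparison at an adjusted p under 0.05, 18.1% higher and 18.7% lower. At 16 h, when 2986 genes (16.9%) were called, the log2 fold change of -0.44 ± 0.15 missed the threshold (edgeR adjusted p = 0.0746). Under the other settings that kept all libraries its adjusted p ran from 1.84e-05 to 0.267, and with DESeq2 it was 0.0287. Nanog was also called at 16 h without 24 h DOX replicate 1 (0.0153) or replicate 2 (0.0130), which enter the estimate of the spread, while without a 16 h library the adjusted p was as high as 0.344.

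Sox2ot had 130 and 144 CPM after 16 h of DOX, against 174 and 172 CPM after water, and 111 and 99.7 CPM after 24 h of DOX, against 179 and 162 CPM after water. Its libraries did not overlap either, and at 24 h Sox2ot fell by 0.70 ± 0.11 on the log2 scale (edgeR adjusted p = 0.00118), with an adjusted p of 0.0689 at 16 h. The step between the times was not resolved for any of these genes: the response at 24 h less that at 16 h was -0.33 ± 0.18 for Pou5f1, -0.38 ± 0.21 for Nanog and -0.37 ± 0.15 for Sox2ot (edgeR adjusted p = 0.536, 0.546 and 0.428), and edgeR called 0 genes (0%) in that comparison, with 1952 at an unadjusted p under 0.05. Genes of 2 to 8 kb, the length class of Pou5f1 and Nanog, had a median log2 fold change of -0.26 at 24 h against -0.01 for all genes, and with the trend on length removed Nanog was still called at 24 h. In a labelled RNA sample, fewer cells of a type and less RNA per cell cannot be told apart. At each time the library names number the water libraries before the DOX libraries, and arm cannot be told apart from that numbering.

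In cycling FOXD3-iKO cells edgeR called no change of Pou5f1 or Nanog at any of the 4 times, and Pou5f1 at 32 h lay close to the threshold. In the same tests the targeted Foxd3 was itself not called at 8 h (-1.33 ± 0.24, edgeR adjusted p = 0.386) or 14 h (-1.49 ± 0.25, 0.145). It was called at 24 h (-1.46 ± 0.24, 0.0191) and 32 h (-1.63 ± 0.28, 0.00286). A missing call at 8 or 14 h therefore does not show that a gene was unchanged. Pou5f1 had 117 and 109 CPM in 4HT cells against 104 and 109 CPM in ethanol cells at 8 h, and 91.7 and 75.1 against 85.7 and 80.3 CPM at 14 h. At 24 h it had 70.7 and 72.0 CPM in 4HT cells against 77.7 and 85.1 CPM in ethanol cells, and at 32 h 70.2 and 68.0 against 79.0 and 106 CPM. The 4HT libraries lay just above those of ethanol at 8 h, overlapped them at 14 h, and lay below them without overlap at 24 and 32 h. The log2 fold changes in time order were 0.09 ± 0.13, 0.01 ± 0.13, -0.19 ± 0.13 and -0.42 ± 0.13, with an edgeR adjusted p of 0.0551 at 32 h, when 1771 of 18707 genes (9.47%) were called, 4.88% higher and 4.59% lower (913 and 858 genes, but 1562 and 239 with total counts alone, and 802 and 289 with total counts less Gm26917 and Gm42418, a pair of genes that collect ribosomal RNA).

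The ethanol libraries at 32 h stood apart from each other, and the 32 h value of Pou5f1 depends on which is kept. Gm26917 and Gm42418 took 28% of the counts in ethanol replicate 2, against 14.25% in ethanol replicate 1 and 13.89 and 12.51% in the 4HT libraries, and the part of this in the 32 h values of Pou5f1 and Nanog was not tested. Without ethanol replicate 1 (79.0 CPM) Pou5f1 was called, at a log2 fold change of -0.62 and an adjusted p of 0.00153, and over all libraries left out in turn the change ran from -0.62 to -0.20. It was also called under DESeq2 (adjusted p = 0.0364), without the low-count filter (0.0284) and with the length trend removed (0.0289, at a change of only -0.22). Genes of 2 to 8 kb had a median log2 fold change of -0.21 at 32 h, against -0.05 for all genes.

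Nanog had 539 and 471 CPM in 4HT cells against 431 and 447 CPM in ethanol cells at 8 h, and 459 and 448 against 395 and 449 CPM at 14 h. At 24 h it had 424 and 473 CPM in 4HT cells against 386 and 402 CPM in ethanol cells, and at 32 h 440 and 427 against 425 and 575 CPM. Nanog was the higher without overlap at 8 and 24 h, while the groups overlapped at 14 and 32 h. Its log2 fold changes were 0.20 ± 0.13, 0.10 ± 0.13, 0.19 ± 0.13 and -0.21 ± 0.13 (edgeR adjusted p of 0.376 or more at each time). In these comparisons 2, 3 and 90 genes (0.0107%, 0.016% and 0.481%) were called at 8, 14 and 24 h. The 32 h value became 0.02 without ethanol replicate 2 and -0.41 (adjusted p = 0.0170) without ethanol replicate 1.

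Sox2ot changed by no more than 0.09 ± 0.11 on the log2 scale at any of the 4 times. A test of whether the FOXD3 response varied over the 4 times called neither Pou5f1 (edgeR adjusted p = 0.545) nor Nanog (0.709), with 85 genes (0.454%) called. The library names put the 8 and 14 h samples and the 24 and 32 h samples in different numbered series, and time cannot be told apart from that numbering. At 24 h and at 32 h the names number the ethanol libraries before the 4HT libraries, and arm cannot be told apart from that order.

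Set against each other at 24 h in one fit of the 8 cycling libraries of that time, the responses to FOXD3 loss and OCT4 loss differed for Nanog. Pou5f1 is the gene the OCT4-tetOff line switches off, so its difference is set by the design and is given as a description. The FOXD3 response less the OCT4 response was 1.64 ± 0.19 on the log2 scale for Pou5f1 and 1.02 ± 0.23 for Nanog (edgeR adjusted p = 0.0131 for Nanog). Sox2ot gave 0.79 ± 0.18 (adjusted p = 0.0153), a call lost without FOXD3-iKO ethanol replicate 1 (0.103) or 4HT replicate 2 (0.0891). In that comparison 3039 of 18437 genes (16.5%) were called, 9.08% with a positive and 7.4% with a negative difference. For Nanog the call was lost without FOXD3-iKO ethanol replicate 1 (adjusted p = 0.0787), ethanol replicate 2 (0.0554) or 4HT replicate 2 (0.0677), with differences of 0.98, 1.06 and 0.94.

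**Figure D3:**
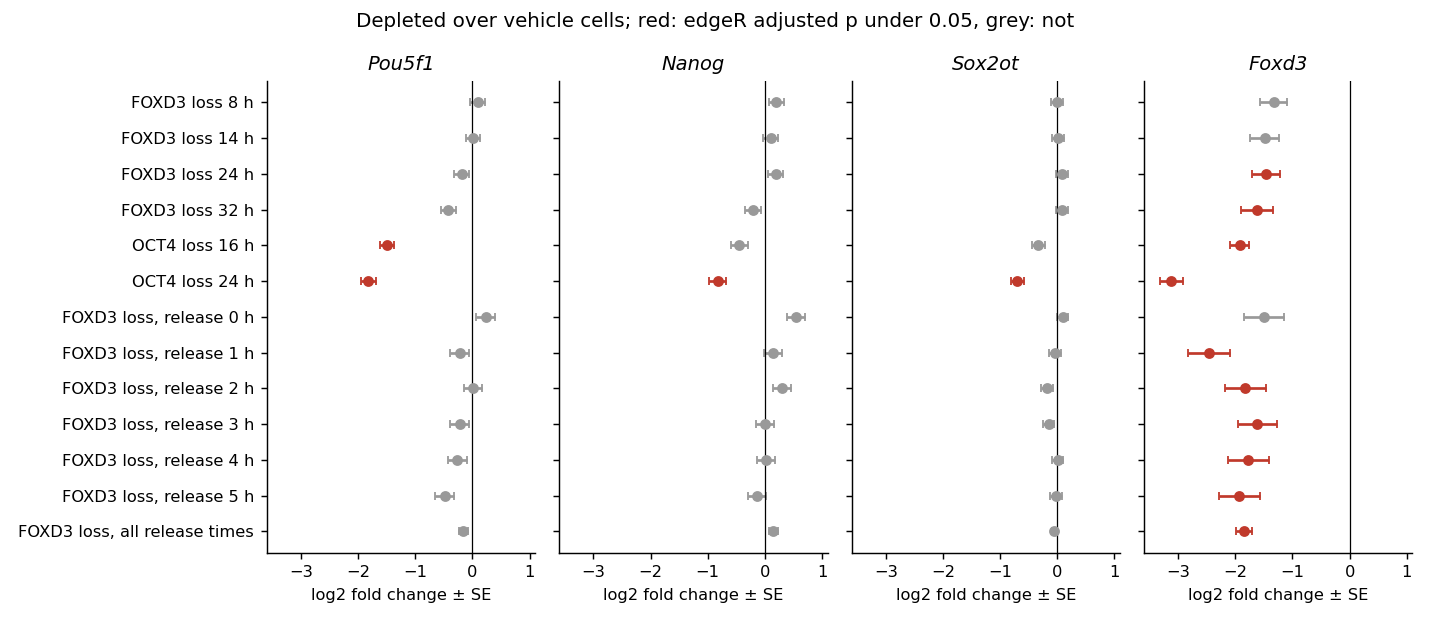
Log2 fold change of 4HT over ethanol or DOX over water cells (x axis, bars are ± 1 SE) for Pou5f1, Nanog, Sox2ot and Foxd3 in each comparison (rows); red points were called by edgeR. Pou5f1, Nanog and Sox2ot were called under OCT4 loss only: Pou5f1 at both times, Nanog and Sox2ot at 24 h.

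In synchronized ethanol cells Pou5f1 transcription was low at the block and higher after release. In 4HT cells it had 82.7 and 79.0 CPM at 0 h, 101 and 100 at 1 h, 106 and 113 at 2 h, 95.9 and 97.1 at 3 h, 86.0 and 95.9 at 4 h, and 90.6 and 75.8 at 5 h. In ethanol cells it had 71.1 and 66.8 CPM at 0 h, 111 and 125 at 1 h, 113 and 105 at 2 h, 128 and 97.2 at 3 h, 123 and 95.3 at 4 h, and 135 and 98.3 at 5 h. Both libraries of each later ethanol time lay above both 0 h libraries. Gm26917 and Gm42418 took 4.92 and 3.41% of the counts in the 0 h ethanol libraries, 25.4 and 4.77% at 3 h and 24.4 and 3.83% at 5 h. The ethanol replicate with the larger share had the higher Pou5f1 level at 0, 1, 3, 4 and 5 h, and the lower at 2 h. The part of this share in the Pou5f1 values was not tested.

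Across release times Pou5f1 was called in ethanol cells (edgeR adjusted p = 0.0204, with 3441 of 17739 genes, 19.4%, called). It was not called there with total counts alone (edgeR adjusted p = 0.0717) or with only the compared groups (0.174). Its change from 0 h was 0.78 ± 0.16 at 1 h, 0.66 ± 0.16 at 2 h, 0.71 ± 0.16 at 3 h, 0.66 ± 0.16 at 4 h and 0.76 ± 0.16 at 5 h on the log2 scale, each called when tested alone (adjusted p of at most 0.0115), where 18.3%, 15.8%, 21.9%, 18.3% and 21.4% of genes were called. Leaving out either 0 h ethanol library ended the call (adjusted p = 0.116 without replicate 1 and 0.199 without replicate 2). In 4HT cells the change from 0 h was 0.32, 0.44, 0.25, 0.17 and 0.04 (SE 0.16 each) at 1 to 5 h, none of them called alone (6.16%, 9.48%, 10.4%, 14.5% and 20.1% of genes were), and it was not called across times (adjusted p = 0.261, with 15.4% of genes called). The difference between the arms over time was not called either (adjusted p = 0.764), in a comparison where edgeR called 0 genes (0%).

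Nanog was not called across release times in either arm, though in 4HT cells its level at 5 h was lower than at 0 h. In 4HT cells it had 398 and 360 CPM at 0 h, 287 and 364 at 1 h, 326 and 329 at 2 h, 291 and 275 at 3 h, 259 and 310 at 4 h, and 254 and 275 at 5 h. In ethanol cells it had 254 and 267 CPM at 0 h, 280 and 309 at 1 h, 254 and 279 at 2 h, 332 and 231 at 3 h, 291 and 268 at 4 h, and 312 and 267 at 5 h. The arms stood apart at 0 and 2 h, 4HT above ethanol, and overlapped at the other times. At 0 h Gm26917 and Gm42418 took 19.7 and 15.6% of the counts in 4HT libraries, against 4.92 and 3.41% in ethanol libraries. The part of this share in the 0 h values was not tested. The targeted Foxd3 was itself not called at 0 h (-1.50 ± 0.35, edgeR adjusted p = 0.0760). At 0 h, where 79 genes (0.445%) were called, the log2 fold change of Nanog was 0.54 ± 0.16 (edgeR adjusted p = 0.121). It was called at 0 h with DESeq2 (adjusted p = 0.0312), without the low-count filter (0.0277) and without either 3 h ethanol library (0.0225 and 0.0224), while its adjusted p was as high as 0.266 under the other settings that kept all libraries and 0.459 without 4HT replicate 1 of 0 h. Across release times Nanog was called neither in 4HT cells (adjusted p = 0.146) nor in ethanol cells (0.888). Its change from 0 h in 4HT cells was -0.22, -0.21, -0.42, -0.42 and -0.52 (SE 0.16 each) at 1 to 5 h, of which the change at 5 h was called alone (edgeR adjusted p = 0.0289). In that comparison of 5 h with 0 h, 3573 of 17739 genes (20.1%) were called. In ethanol cells the change from 0 h lay between 0.03 and 0.17, with no call.

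Over all 6 release times the 4HT effect was -0.16 ± 0.08 for Pou5f1 and 0.15 ± 0.07 for Nanog (edgeR adjusted p = 0.0990 and 0.123), in a comparison where 6565 genes (37%) were called, 18.6% higher and 18.4% lower (3300 and 3265 genes, but 796 and 7413 with total counts alone, and 1295 and 6198 with total counts less Gm26917 and Gm42418). Both values turn on the scaling: with total counts alone, which moved the median of all genes to -0.21, they were -0.36 (called) and -0.05, and with the length trend removed they were 0.01 and 0.29 (called). At single release times Pou5f1 ran from -0.49 ± 0.16 at 5 h to 0.23 ± 0.16 at 0 h, with no call. In these tests 2.4%, 0.789%, 3.49%, 0.519% and 2.09% of genes were called at 1, 2, 3, 4 and 5 h. In synchronized cells the library names number all ethanol libraries before all 4HT libraries, so the 4HT effect cannot be told apart from that numbering.

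Sox2ot fell after release in both arms. It had 169 and 159 CPM at 0 h and 109 and 104 CPM at 2 h in 4HT cells, and 160 and 148 CPM at 0 h and 118 and 123 CPM at 2 h in ethanol cells. Across release times Sox2ot was called in 4HT cells (edgeR adjusted p = 0.00713) and not in ethanol cells (0.104). The 4HT call was lost with total counts alone (0.111), without the low-count filter (0.0626), with the length trend removed (0.0787) and without 4HT replicate 1 of 0 h (0.107). Tested one time at a time, Sox2ot was below its 0 h level at all 5 times in 4HT cells (adjusted p of at most 0.0430) and at 1 and 2 h in ethanol cells (-0.32 and -0.35, adjusted p = 0.0356 and 0.0276). In the test across times the difference between the arms was not called (0.829).

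The ratio of Nanog to Pou5f1 within a library does not depend on how libraries are scaled. It was computed after the values of both genes had been seen and is given as a description. In synchronized cells the ratio of the per-kb levels was 3.20 and 3.03 after 4HT against 2.38 and 2.66 after ethanol at 0 h, and 1.89 and 2.41 against 1.68 and 1.64 at 1 h. The 4HT libraries had the higher ratio, without overlap, at 6 of 6 release times, by 1.18 to 1.28-fold. The mean log2 difference was 0.30 against a pooled SD between replicates of 0.15. The library names number all ethanol libraries before all 4HT libraries, and arm cannot be told apart from that numbering. Within a replicate the names run through the release times in order, so the 6 times may not be independent repeats. Among 9943 other genes, Nanog over the other gene was higher without overlap at all 6 times for 363 (3.65%), and Pou5f1 over the other gene was lower at all 6 times for 580 (5.83%).

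In cycling cells the ratio after FOXD3 loss was higher in 4HT cells at 4 of 4 times and without overlap at 3. It stood at 4.00 and 4.37 against 3.31 and 3.15 at 24 h, and at 4.17 and 4.18 against 3.58 and 3.60 at 32 h. At 14 h the 4HT values of 3.33 and 3.97 overlapped the ethanol values of 3.07 and 3.73. After OCT4 loss the ratio was 3.50 and 3.28 in DOX cells against 1.59 and 1.68 in water cells at 16 h, and 3.56 and 3.37 against 1.74 and 1.73 at 24 h, so that Pou5f1 fell about 2.03-fold further than Nanog. For cycling cells of either line, the share of other genes whose ratio lies apart in this way was not computed. The mean log2 difference ran from 0.27 to 0.34 in synchronized cells, from 0.17 to 0.24 in cycling FOXD3-iKO cells and from 1.0002 to 1.05 in OCT4-tetOff cells when each library was left out in turn.

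**Figure D4:**
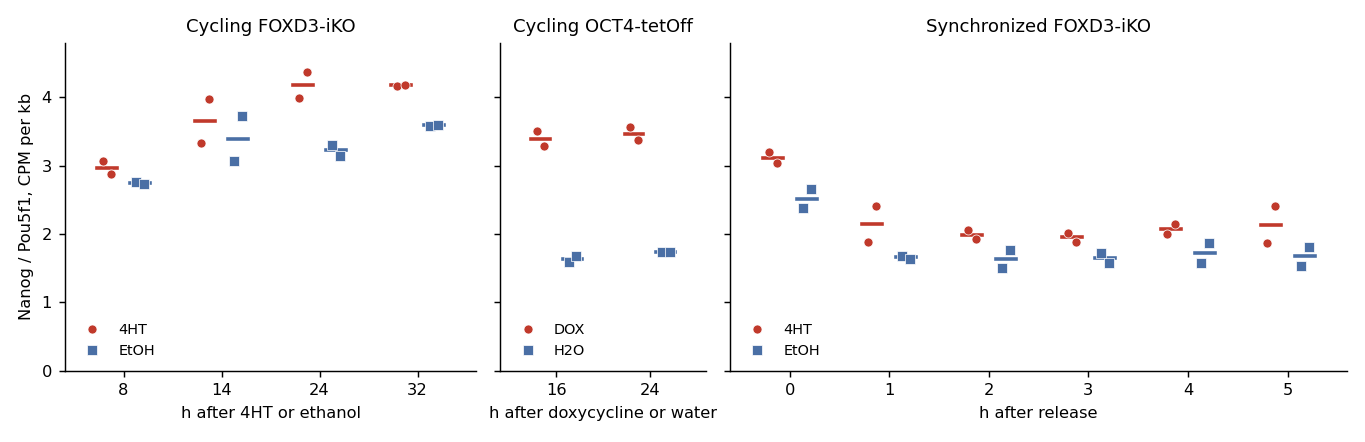
Ratio of Nanog to Pou5f1, both in CPM per kb of counted interval, in each library (points) with the mean of 2 (lines), by time in h; red, 4HT or DOX; blue, ethanol or water. The red points lie above the blue points at all 6 release times, at 8, 24 and 32 h in cycling FOXD3-iKO cells and at both times in OCT4-tetOff cells. For the cycling cells, the share of other genes whose ratio lies apart in this way was not computed.

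Within a table, the groups can be ordered by level, and most neighbours overlap. In cycling FOXD3-iKO cells Pou5f1 ran from a mean of 113 CPM in 4HT cells at 8 h to 69.1 CPM in 4HT cells at 32 h. Its 8 h 4HT group, 24 h 4HT group and 32 h 4HT group each stood clear of the next group in the order, whereas the 5 groups between had overlapping neighbours. Nanog ran from 505 CPM in 4HT cells at 8 h to 394 CPM in ethanol cells at 24 h, and every group overlapped the next. In OCT4-tetOff cells the order for Pou5f1 and Nanog alike was DOX 24 h, DOX 16 h, water 24 h and water 16 h from low to high, with no overlap between neighbours. Water cells at 24 h and 16 h differed by -0.26 ± 0.13 for Pou5f1 and -0.17 ± 0.15 for Nanog (edgeR adjusted p = 0.242 and 0.503), and edgeR called 0 genes (0%) there, with 4119 at an unadjusted p under 0.05. Ethanol cells at 32 h and 24 h differed by 0.19 ± 0.13 for Pou5f1 and 0.34 ± 0.13 for Nanog (adjusted p = 0.405 and 0.142), where 1006 genes (5.38%) were called.

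Most other pluripotency factors were also lower after OCT4 loss. Of 20 network factors measured, 15 were called lower and 3 higher at 24 h, against 18.7% lower and 18.1% higher of all genes, with a median log2 fold change of -0.91 against -0.01 for all genes. Zfp42 fell by 1.79 ± 0.11, Klf5, a factor of naive self-renewal, by 1.73 ± 0.11, and Esrrb, an orphan nuclear receptor that sustains ESCs, by 1.57 ± 0.12 (edgeR adjusted p = 3.67e-06, 5.62e-06 and 1.38e-05). Foxd3 itself had 2.85 and 1.88 CPM after 24 h of DOX, against 21.2 and 20.2 CPM after water, a log2 fold change of -3.12 ± 0.20 (adjusted p = 5.62e-06). The same 20 genes include Foxd3, whose own fall after 32 h of 4HT (-1.63 ± 0.28, edgeR adjusted p = 0.00286) is set by the design. Their median at that time was -0.10 against -0.05 for all genes. With Foxd3 counted among the lower genes, FOXD3 loss at 32 h gave 2 lower and 1 higher, where 9.47% of all genes were called. These 3 calls became 9 without ethanol replicate 1 of 32 h, 2 without 4HT replicate 1 and 1 without 4HT replicate 2 of that time, and were 0 to 5 over the other settings.

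Among known OCT4 and SOX2 targets, 15 of 19 were called lower and 2 higher after 24 h of DOX (18.7% and 18.1% of all genes), with a median of -1.79. Zfp42 is in this list and in that of the network factors, so the counts of the 2 lists are not independent. L1td1, an RNA-binding protein gene of pluripotent cells, had 38.7 to 41.2 CPM after DOX against 206 to 224 CPM after water, and Lefty2, an antagonist of Nodal signalling, had 0.240 to 0.258 CPM after DOX against 5.42 to 6.67 CPM after water. Their log2 fold changes were -2.43 ± 0.10 and -4.58 ± 0.25 (edgeR adjusted p = 8.25e-07 and 2.63e-06). After 32 h of 4HT, 6 of these 19 genes were lower and 1 higher (4.59% and 4.88% of all genes). These 7 calls became 11 without ethanol replicate 1 of 32 h, 4 without ethanol replicate 2 and 3 without either 4HT library of 32 h, and were 1 to 8 over the other settings. Lefty2 fell by 1.23 ± 0.13 and Lefty1 by 1.32 ± 0.20 there (adjusted p = 5.94e-05 and 0.00123), while Trp53inp1, a p53-induced gene, rose by 1.01 ± 0.09 (adjusted p = 1.37e-05).

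Among relatives of the members, POU genes called after OCT4 loss were lower and SOX genes called were mostly higher. Of 8 measured POU genes besides Pou5f1, 4 were lower and 0 higher at 24 h by edgeR, when 18.7% of all genes were lower, and the other members of the list did not pass the low-count filter. Pou2f3 had 0.258 to 0.343 CPM after DOX against 7.504 to 9.21 CPM after water, and Pou6f1 4.18 to 5.05 CPM after DOX against 8.84 to 10.4 CPM after water. Of 12 measured SOX genes 5 were higher and 1 lower, when 18.1% of all genes were higher. Sox5 had 18.7 to 26.5 CPM after DOX against 4.03 to 4.25 CPM after water, and Sox4 8.71 to 14.5 CPM after DOX against 5.05 to 5.53 CPM after water.

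Many markers of extraembryonic lineages were higher after OCT4 loss. At 24 h of DOX 9 of 13 primitive endoderm genes were higher and 1 lower, against 18.1% higher and 18.7% lower of all genes, with Gata6, a regulator of that lineage, at 20.7 to 21.1 CPM after DOX against 1.12 to 1.30 CPM after water. Of 16 trophectoderm genes 8 were higher and 2 lower, with Krt7, a keratin, at 7.19 to 8.30 CPM after DOX against 0.468 to 0.632 CPM after water and Gata3, a trophectoderm regulator, at 49.7 to 55.0 against 9.59 to 11.4 CPM. The 2 lower genes were Tfap2a and Tead4, both regulators of that lineage: Tfap2a had 2.73 to 4.05 CPM after DOX against 10.6 to 11.8 CPM after water, and Tead4 40.1 to 51.3 CPM after DOX against 90.1 to 106.7 CPM after water. Their log2 fold changes were -1.72 ± 0.18 and -1.11 ± 0.13 (edgeR adjusted p = 9.34e-05 and 0.000216). Formative and primed epiblast genes gave 6 lower and 2 higher of 10, mesoderm and primitive streak genes 4 lower and 2 higher of 8, and neural genes 2 higher of 4, lists with few measured members. The 6 mesoderm calls became 2 without DOX replicate 2 or water replicate 1 of 24 h, 3 without water replicate 2 and 3 with only the compared groups. Of 4 measured fibroblast genes 2, Pdgfrb and Thy1, were called higher, and the other 2, Col1a1 and Twist2, were not called. Over the other settings Col1a1 changed by -0.83 to -0.70 on the log2 scale and Twist2 by 0.08 to 0.26. The summed fibroblast list was higher in DOX libraries by the values given above, and its part in these changes was not tested.

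**Figure D5:**
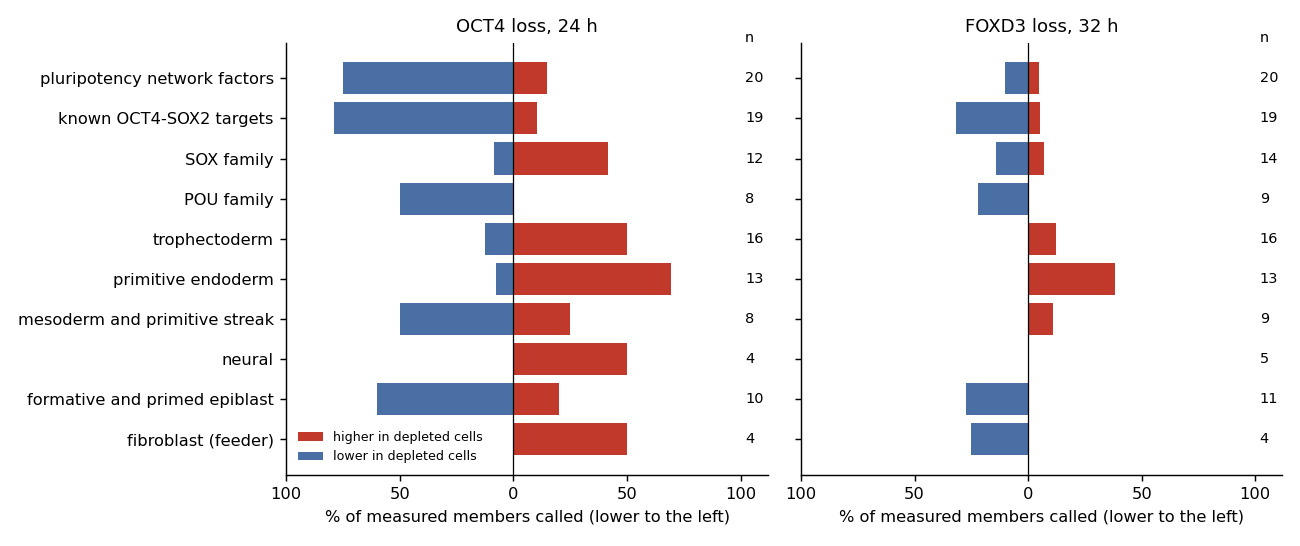
Percentage of the measured members of each gene list (n at the right) that edgeR called higher (red, right of 0) or lower (blue, left of 0) in depleted cells, after 24 h of DOX (left) and 32 h of 4HT (right). After DOX 15 of 20 network factors and 15 of 19 known targets are lower, and after 4HT 2 of 20 and 6 of 19. The 2 network factors lower after 4HT include the targeted Foxd3, and both lists hold Zfp42.

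The genes whose levels ran most like those of each member were taken by the mean of 3 Pearson correlations of log2 CPM, over the 16, 8 and 24 libraries of the tables, among 8612 genes. These describe libraries that share treatment, depth and composition, and carry no test. For Pou5f1 they were Tcof1, a nucleolar factor of ribosomal RNA synthesis (mean r = 0.92), Zfp296, a zinc finger gene of ESCs (0.90), Usf1, a basic helix-loop-helix factor (0.90), AU020206 (0.90) and Mybbp1a, a nucleolar MYB-binding protein (0.90). For Nanog they were Prim1, a subunit of DNA primase (0.87), Ddx27, a nucleolar helicase (0.86), Tbrg4 (0.84), Polr2g, a subunit of RNA polymerase II (0.84), and Nfatc2ip (0.84). Nanog and Pou5f1 correlated with each other at 0.93 over the OCT4-tetOff libraries, 0.54 over the cycling FOXD3-iKO libraries and 0.18 over the synchronized libraries. Nanog stood at place 1602 in the order for Pou5f1.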

How the data were processed

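Newly made RNA of mouse ESCs was sequenced after a 4SU pulse; per the labels' protocols it was extracted with Trizol LS and prepared with the KAPA RNA HyperPrep kit. The authors deposited raw counts per gene in 3 tables of 16, 8 and 24 libraries. STAR, featureCounts and the build mm10 are named in the submitters' processing notes, while versions, strand setting and treatment of overlapping genes are not given there. The listed length of all 54752 genes spans start to end, introns included.

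Groups follow the sample titles. Symbols were matched to 54723 gene IDs without their version. For each table, edgeR 4.0.16 (R 4.3.3) fitted all libraries with one mean per group, TMM factors and the quasi-likelihood test, after filterByExpr with a minimum count of 10. A joint fit of 8 libraries compared FOXD3 and OCT4 loss at 24 h, and the effect over all release times had time as a covariate. Calls are at an adjusted p under 0.05 (Benjamini-Hochberg, all genes tested). The tests were tried on simulated data first, and SE is that of the log2 fold change.

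Alternatives were DESeq2 1.42.0, RLE factors, total counts with and without Gm26917 and Gm42418 (3.41 to 43.0% of a library, genes that collect ribosomal RNA), no low-count filter, a trend on gene length removed, a replicate block, only the compared groups, the mean of the 6 release contrasts, and each library left out. Leaving out a library in the ratio of Nanog to Pou5f1 was added after seeing the data. A library has a floor of 3 counts, at most 0.377 CPM, and this covers counting error only. The members, the 10 gene lists and the tests were chosen with earlier results of these data known. Named were the members, Foxd3, genes overlapping a member, genes from the 4 smallest p-values of a list in a comparison, and the 5 genes most like each member (average log2 CPM of at least 3 in each table). Genes inside a gene of the opposite strand kept their counts while all those inside a gene of the same strand had 0, so reads were assigned by strand in the deposited counts, and Gm19553 and Pou5f1 were counted apart. Proteins were not used here.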

Additional observations from a re-analysis of the deposited data

Results flagged for a closer look

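Nanog and the gene overlapping Sox2 responded differently to FOXD3 loss and to OCT4 loss at 24 h, by a test of the difference itself in a fit of the 8 cycling libraries of that time. Pou5f1 passed that test too, with a difference of 1.64 ± 0.19 on the log2 scale (FOXD3 response less OCT4 response), but it is the gene that the OCT4-tetOff line switches off, so the design fixes this difference and it is no finding. It changed by -0.19 ± 0.13 under FOXD3 loss and by -1.83 ± 0.13 under OCT4 loss in the fits of the single tables. Nanog had a difference of 1.02 ± 0.23 (edgeR adjusted p = 0.0131), with changes of 0.19 ± 0.13 and -0.83 ± 0.15 in the same order. Sox2ot had a difference of 0.79 ± 0.18 (adjusted p = 0.0153), with changes of 0.09 ± 0.11 and -0.70 ± 0.11. Leaving out single libraries moved the Nanog difference between 0.82 and 1.25 and its adjusted p between 0.00124 and 0.0787, and that of Sox2ot between 0.68 and 0.90 with an adjusted p of 0.00829 to 0.103, so either call can be lost. The lines also differ in agent and solvent, which cannot be told apart from the factor lost.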

How the results depend on the processing

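Under settings that kept all libraries, 291 of the values behind the comparisons of Pou5f1 and Nanog kept direction and call, 32 turned direction, 19 gained a call and 2 lost it. In OCT4-tetOff cells Pou5f1 at both times and Nanog at 24 h were called lower after DOX under every setting run. No value that turned was called as reported, and the cause was not tested.

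The Nanog effect over release times was 0.15 with TMM, -0.055 with total counts, -0.017 with total counts less Gm26917 and Gm42418 and 0.29 (called) with the length trend removed. That of Pou5f1 was -0.16, and -0.36 and -0.33 (both called) with these totals and 0.0052 with the length trend removed. Nanog at release 1 h became -0.077 and -0.10 with the totals, at 2 h -0.051 with total counts, at 3 h -0.25 and -0.29 with the totals, -0.020 with RLE factors and DESeq2, -0.021 with the compared groups only and -0.074 without the filter. At 4 h it became -0.14 and -0.13 with the totals, -0.00088 with RLE factors and -0.00099 with DESeq2, and at 5 h 0.14 with the length trend removed. Pou5f1 at release 1 h became 0.0032 with the length trend removed, and at 2 h -0.35 and -0.16 with the totals, -0.0025 with RLE factors, -0.0024 with DESeq2, -0.022 without the filter and -0.027 with the compared groups only. In cycling cells Pou5f1 at 14 h became -0.0099 with RLE factors, -0.00996 with DESeq2, -0.11 and -0.028 with the totals and -0.0031 with the compared groups only, and Nanog at 14 h -0.0094 with total counts. The water change of Nanog became 0.037 with total counts and 0.010 with the length trend removed, and Sox2ot at 32 h -0.10 with that trend removed.

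Calls were gained for Nanog at 8 h with the compared groups only (0.20), at release 0 h with DESeq2 (0.58) and without the filter (0.53), and in the ethanol change from 24 to 32 h with the length trend removed (0.41). Nanog at 16 h of DOX was called with DESeq2 and with the compared groups only (-0.45 each), without the filter (-0.45), with the length trend removed (-0.39) and with the replicate block (-0.45, adjusted p = 0.0373). Pou5f1 was called at 32 h with DESeq2 (-0.42), without the filter (-0.39) and with the length trend removed (-0.22), and in the ethanol change from 24 to 32 h with that trend removed (0.28). Across release times in 4HT cells, Nanog reached an adjusted p of 0.0337 with total counts less Gm26917 and Gm42418 and 0.0318 with the compared groups only, and Pou5f1 0.0259 with the compared groups only, while in ethanol cells Pou5f1 lost its call with total counts (0.0717) and with the compared groups only (0.174).

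Leaving out single libraries gave log2 ranges of 0.12 to 0.20 for Nanog over release times, 0.50 to 0.65 at release 0 h, -0.036 to 0.29 at 1 h, -0.28 to 0.30 at 3 h and -0.12 to 0.14 at 4 h. In cycling cells they were -0.41 to 0.025 for Nanog at 32 h, -0.60 to -0.16 for its response at 32 h less 24 h, 0.11 to 0.54 for its ethanol change, 0.82 to 1.25 for FOXD3 less OCT4 loss and -0.50 to -0.39 for 16 h of DOX. For Pou5f1 they were -0.17 to 0.14 at 14 h, -0.62 to -0.20 at 32 h, -0.042 to 0.068 at release 2 h and -0.041 to 0.39 for the ethanol change. Adjusted p-values ran from 0.0425 to 0.474 for Nanog across release times in 4HT cells, from 0.00262 to 0.199 for Pou5f1 in ethanol cells and from 0.0358 to 0.975 for Pou5f1 over the 4 times. The FOXD3 loss ranges over single libraries were -0.017 to 0.22 at 24 h and -0.037 to 0.20 at 32 h for Sox2ot. At 32 h they were -0.51 to 1.56 for Col1a1, -1.49 to 0.024 for Neurog1, -0.49 to 0.086 for Pdgfrb and -0.42 to 0.012 for Pou4f1, and after 24 h of DOX -1.02 to 0.19 for Pax6 and -0.25 to 0.60 for Twist2.

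Same-numbered replicates correlated at -0.397 to 0.839 in their deviations, so the numbers were not taken to pair libraries, and the replicate block changed no other call of the members. Total counts moved the median of all genes to 0.12 for FOXD3 loss at 32 h, 0.15 for OCT4 loss at 16 h and 0.21 for the water change, which then had 3017 calls against 0. Over the settings that kept all libraries the number of called genes ran from 4215 to 8237 (6531 as reported) for 24 h of DOX, from 2524 to 6506 (2986) for 16 h, from 194 to 2608 (1771) for 32 h of 4HT, from 46 to 359 (90) for 24 h, from 4632 to 8209 (6565) over release times and from 754 to 6298 (3441) for release in ethanol cells. With single libraries left out it ran from 3969 to 7851 for 24 h of DOX and from 1327 to 3857 for 16 h. For FOXD3 loss it ran from 597 (without 4HT replicate 2 of 32 h) to 4370 (without ethanol replicate 1 of 32 h) at 32 h, and from 2 (without ethanol replicate 1 of 24 h) to 226 (without ethanol replicate 2 of 32 h) at 24 h. It ran from 5746 to 7217 over release times, and from 1289 (without 0 h ethanol replicate 2) to 7673 (without 3 h ethanol replicate 2) for release in ethanol cells. With only the compared groups, fits over several times or lines could not be fitted apart from those reported. Libraries of 7953841 counts and 2 per group limit what small changes can be seen.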

Other observations

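Relatives of the members were also called after FOXD3 loss. At 32 h, when 9.47% of all genes were called, 2 of 9 measured POU genes were lower and 0 higher by edgeR: Pou2f3 had 12.2 to 13.5 CPM in 4HT cells against 25.9 to 30.6 CPM in ethanol cells, and Pou4f2 had 1.12 to 1.59 CPM in 4HT cells against 2.16 to 3.12 CPM in ethanol cells. Among 14 SOX genes Sox4 fell by 0.76 ± 0.16 and Sox11 by 0.75 ± 0.20, while Sox15 rose by 0.61 ± 0.17 (edgeR adjusted p = 0.00968, 0.0321 and 0.0428). With single libraries left out their adjusted p reached 0.0846, 0.214 and 0.224, and the number of SOX genes called ran from 0 without either 4HT library of 32 h to 7 without ethanol replicate 1 of 32 h, and from 0 to 6 over the other settings. The 2 POU calls became 1, that of Pou4f2 being lost, without either 4HT library of 24 or 32 h, ethanol replicate 1 of 24 h or ethanol replicate 2 of 32 h (edgeR adjusted p of 0.0505 to 0.229). Sox4 rose by 1.14 ± 0.23 after 24 h of DOX (adjusted p = 0.00488), a difference between the lines at these unequal times that was not tested.

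Primitive endoderm genes gave 5 higher and 0 lower of 13 at 32 h of 4HT, against 4.88% and 4.59% of all genes, and 3 to 6 were called with single libraries left out and 2 to 6 over the other settings. Gata6 had 7.73 to 8.76 CPM in 4HT cells against 3.79 to 4.00 CPM in ethanol cells, and Hnf4a, a regulator of visceral endoderm, rose by 1.07 ± 0.12 (edgeR adjusted p = 0.000115). Of the 20 network factors, Tfap2c rose by 0.75 ± 0.13 and Nr0b1, an orphan nuclear receptor of ESCs, fell by 0.70 ± 0.15 (adjusted p = 0.00269 and 0.00954), a call of Nr0b1 that was lost without ethanol replicate 2 (0.0549), 4HT replicate 1 (0.0808) or 4HT replicate 2 (0.0678) of 32 h. Over the 6 release times 7 network factors were higher and 4 lower of 20, in a comparison where 37% of all genes were called. The 4 lower include the targeted Foxd3 (-1.84 ± 0.14, edgeR adjusted p = 7.06e-09). In the same comparison 5 known targets were higher and 7 lower of 19.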
